A study of Mus musculus with 2 samples.

Results

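Broad open promoter regions were merged regions of DNase-sensitive chromatin, 600 bp or wider, within 1 kb of the starts of protein-coding genes in the mouse adrenal gland. The members were chosen by their merged width: overlapping DNase peaks of 2 libraries were merged, and a region was kept where it held a peak of each library, lay within 1 kb of a protein-coding transcript start and reached 600 bp. Of 143793 merged regions, 65778 held a peak of both libraries, and 22681 of these lay within 1 kb of a coding start. Of these 22681 shared promoter regions, 2268 were broad (10%, exact Clopper-Pearson 95% interval 9.61 to 10.4%), and 20413 were narrower. The members lay at 2186 genes, which is 10% of all 21802 protein-coding genes with a usable symbol and 15.5% of the 14066 genes with a shared promoter region, called open genes here. Since width chose the members, their width and everything the same peaks fix is given as a description.

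Both libraries were made from adrenal glands of male adult B6CASTF1/J mice aged 18 to 20 months, as replicates 1 and 2. The labels give them separate tissue samples but 1 donor entry. Whether the glands came from separate animals is not stated, and the spread between libraries may be technical. There was 1 group and no treatment or control, and no test between conditions could be made. In bulk tissue, openness in a few cells and weaker openness in all cells cannot be told apart.

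DNase I cuts DNA where nucleosomes are absent or loose, so stretches with many cuts mark active promoters and enhancers. Many vertebrate promoters lie in CpG islands, stretches rich in G, C and the CpG dinucleotide, and factors that bind such promoters include NFY, SP/KLF, ETS and NRF1 proteins. A bound protein can shield a few bases from cutting inside an open stretch, and such a protected stretch is called a footprint.

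The longer of the 2 deposited peak lists held 98630 peaks in replicate 1 and 118249 in replicate 2, with a median height of 0.717 and 0.75 in the authors' normalised signal. The authors' footprint lists held 228557 and 273271 footprints. Sequencing depth is unknown, since these files give no read totals. Against the tissue label, all 4 cortex markers (Cyp11a1, Star, Nr5a1 and Cyp11b1) and 3 of 5 medulla markers (Chga, Chgb and Slc18a1) were open. The medulla markers Th and Dbh, 3 hepatocyte markers and 3 kidney markers had no shared promoter region, and none of these 15 markers had a broad one.

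Sequences just upstream of a coding start inside a region are printed first because members differed widely in how much of this DNA lay under footprints. They are RefSeq's GRCm38.p6 reference, 5′ to 3′ on the strand of the gene, outside every annotated exon, and capitals mark bases under a footprint in both libraries. The stretches of Nkx2-4 (chr2:147085446-147085645, minus strand), Hunk (chr16:90385813-90386012, plus strand) and Npr1 (chr3:90465867-90466066, minus strand) come from the 15 widest members. These 3 were chosen after their values were seen from the 7 of the 15 widest with such a stretch. The others, Mycn, Gfra1, Tmem178b and Ubtf, are not printed, and had 0, 0, 0 and 7 bases under a footprint of both libraries. Nkx2-4 and Hunk had no base under a footprint of both libraries in these 200 bases, with 13 and 19 CpG dinucleotides, and Npr1 had 15 such bases.
Nkx2-4: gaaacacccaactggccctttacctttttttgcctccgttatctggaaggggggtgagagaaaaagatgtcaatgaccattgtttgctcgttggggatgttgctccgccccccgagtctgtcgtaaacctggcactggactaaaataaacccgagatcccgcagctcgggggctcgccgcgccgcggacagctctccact
Hunk: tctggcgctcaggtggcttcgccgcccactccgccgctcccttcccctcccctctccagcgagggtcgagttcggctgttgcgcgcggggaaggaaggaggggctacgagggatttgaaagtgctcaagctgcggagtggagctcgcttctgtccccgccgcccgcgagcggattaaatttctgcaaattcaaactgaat
Npr1: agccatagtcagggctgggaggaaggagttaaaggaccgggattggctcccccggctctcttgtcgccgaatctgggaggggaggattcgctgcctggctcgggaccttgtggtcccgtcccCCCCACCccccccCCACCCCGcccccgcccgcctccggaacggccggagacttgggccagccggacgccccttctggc

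Jun (chr4:95052223-95052422, minus strand) and Vkorc1l1 (chr5:129941770-129941969, plus strand), which were chosen after their values were seen, show the tallest members. There, 96 and 80 of 200 bases lay under a footprint of both libraries. Mms19, also one of the tallest with such a stretch, had 53 and is not printed. Nfil3 (chr13:52981074-52981273, minus strand), the widest member of the clock list, had 34 such bases and 36 CpG dinucleotides.
Jun: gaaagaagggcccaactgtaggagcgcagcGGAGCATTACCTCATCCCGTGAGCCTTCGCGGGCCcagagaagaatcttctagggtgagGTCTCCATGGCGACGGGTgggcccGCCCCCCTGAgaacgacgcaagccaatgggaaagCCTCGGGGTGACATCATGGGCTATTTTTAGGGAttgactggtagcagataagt
Vkorc1l1: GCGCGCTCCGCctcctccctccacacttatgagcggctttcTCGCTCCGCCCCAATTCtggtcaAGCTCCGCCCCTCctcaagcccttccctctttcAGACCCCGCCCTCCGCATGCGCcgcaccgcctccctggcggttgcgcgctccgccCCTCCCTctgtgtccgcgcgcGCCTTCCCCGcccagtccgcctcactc
Nfil3: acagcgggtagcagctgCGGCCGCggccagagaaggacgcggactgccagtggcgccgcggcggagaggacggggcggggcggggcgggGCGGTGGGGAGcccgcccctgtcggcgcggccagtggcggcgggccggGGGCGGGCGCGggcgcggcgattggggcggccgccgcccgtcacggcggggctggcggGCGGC

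Srebf2, the master activator of cholesterol synthesis genes, shows a broad and a narrower region side by side. The broad stretch lies before an inner start of the gene (chr15:82147813-82148012, plus strand) and has no base under a footprint of both libraries and no match to CCAAT or GGGCGG. The stretch before the outermost start (chr15:82147001-82147180, plus strand), which was chosen after its values were seen, belongs to a narrower region of 300 bp and has 49 such bases, with 1 match to each of the 2 motifs.
Srebf2 broad: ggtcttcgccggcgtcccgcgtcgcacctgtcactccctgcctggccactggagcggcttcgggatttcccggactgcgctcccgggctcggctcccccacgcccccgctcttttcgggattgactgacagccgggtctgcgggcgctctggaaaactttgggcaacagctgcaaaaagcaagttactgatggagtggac
Srebf2 narrower: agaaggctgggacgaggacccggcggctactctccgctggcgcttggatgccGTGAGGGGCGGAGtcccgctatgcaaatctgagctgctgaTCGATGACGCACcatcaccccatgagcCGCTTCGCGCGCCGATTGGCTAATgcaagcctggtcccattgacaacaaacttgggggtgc

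The members had a median merged width of 740 bp, with quartiles of 660 and 900 bp and a maximum of 2300 bp, against a median of 260 bp in narrower regions. Of the members, 925 reached 800 bp, 395 reached 1000 bp and 50 reached 1500 bp. At the threshold, 163 members were exactly 600 bp wide and 199 regions left out were 580 bp wide. Tsga10 (heights 8.31 and 6.70 in replicates 1 and 2) and Shld2 (7.35 and 5.22) were the highest members at 600 bp. Just outside, at 599 bp, stood Calhm2 (1.31 and 1.44) and Pgp (1.27 and 1.21).

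Most members were built from several peaks. Of the members, 1104 (48.7%) held 2 or more peaks in each library, against 194 (0.95%) of narrower regions, and 438 (19.3%) held 1 peak in each library. Peaks covered 78.1% of member bases in replicate 1 and 85.6% in replicate 2. An unbroken stretch of peaks of 600 bp or more was present in 45.5% of members in replicate 1, in 60.8% in replicate 2 and in 23.6% in both. In 17.3% of members neither library alone had such a stretch, so that the width came from joining the peaks of both.

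How far each library gave the same broad regions was read by applying the rule to each library alone. Replicate 1 alone gave 993 broad promoter regions and replicate 2 alone gave 1339. Of the replicate 1 set, 44.8% overlapped a region broad in replicate 2, and of the replicate 2 set, 33.1% overlapped a region broad in replicate 1. Of regions narrower in replicate 1, 4.96% overlapped a region broad in replicate 2, and 2.93% did so the other way round. Nearly all single-library broad regions met some peak of the other library (95.1% of replicate 1's and 97.1% of replicate 2's). Across members, the heights of both libraries had a Spearman correlation of 0.917 and the bases covered by peaks one of 0.317 (n = 2268 regions, from the same 2 libraries). The merged width that chose the members is made of these covered bases, which narrows their range, so the 2 correlations cannot be set against each other.

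Broad regions were low. The tallest peak of a member had a median height of 1.32 in replicate 1 and 1.27 in replicate 2, against 2.30 and 2.33 in narrower regions. The mean of both libraries lay above the median of all shared promoter regions in 20.5% of members, against 53.3% of narrower regions. Across shared promoter regions the Spearman correlation of width and mean height was -0.218 (n = 22681 regions). The log2 ratio of median heights, broad over narrower, was -0.84 over both libraries, but -0.16 with regions built without replicate 1 and -0.26 without replicate 2, where regions need a peak of 1 library only.

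**Figure D1:**
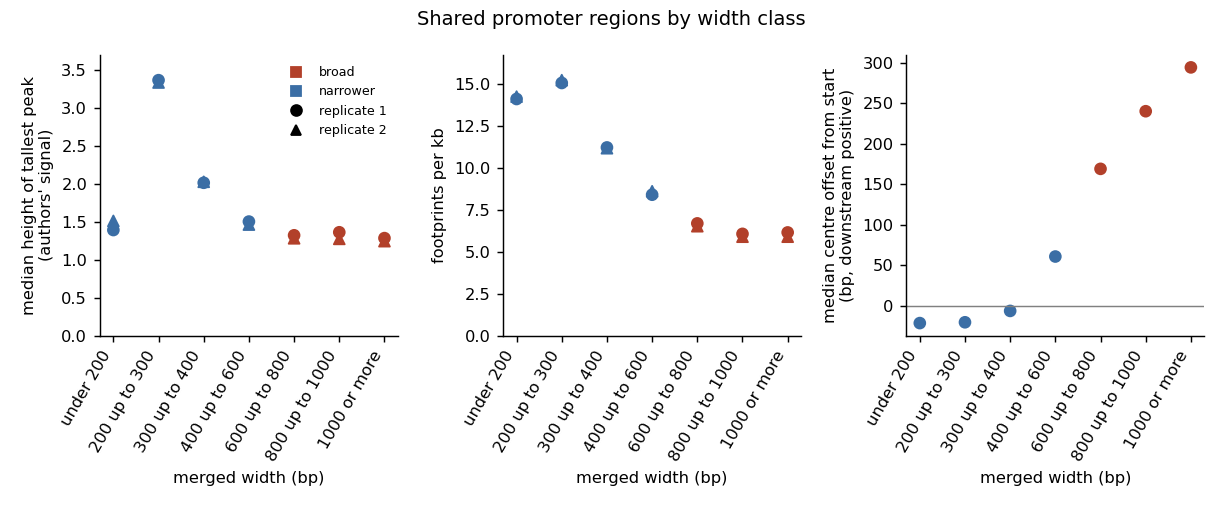
Shared promoter regions in 7 classes of merged width: median height of the tallest peak per library (left), footprints per kb per library (middle) and median offset of the region centre from the nearest coding start (right, downstream positive), with broad classes in red, narrower classes in blue, replicate 1 as circles and replicate 2 as triangles. Heights and footprints per kb were highest in the class of 200 bp up to 300 bp, and the centre lay farther downstream in each wider class from 300 bp on.

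The plot by width class shows that height fell off before the threshold of 600 bp was reached. In regions of 1000 bp or more the median heights were 1.28 in replicate 1 and 1.24 in replicate 2. The class of 400 bp up to 600 bp had 1.5 and 1.46, and the class of 200 bp up to 300 bp had 3.36 and 3.33. The narrowest regions, under 200 bp, were again low, at 1.39 and 1.51.

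The widest member lay at Gas1, a cell-surface co-receptor of hedgehog signalling, on chr13:60175601-60177900 (GRCm38). It was 2300 bp wide with 5 peaks in each library, and its tallest peak reached 2.45 in replicate 1 and 2.61 in replicate 2. A narrower region of 200 bp within 1 kb of it was taller, at 5.86 and 6.19, where taller means here and below a higher mean height of both libraries.

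Smarca2, an ATPase of the SWI/SNF chromatin remodelling complex, had a member of 2240 bp (chr19:26605801-26608040), which began 682 bp downstream of its nearest start, in an intron. Its heights were 2.33 and 1.98, against 7.02 and 6.23 in a 300 bp region at the start. Ctbp2, a transcriptional corepressor, followed with 2180 bp and heights of 2.05 and 1.66. In both genes replicate 1 was the higher library, and the broad stretch stayed under its narrower neighbour in both libraries.

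Itpkb, an inositol phosphate kinase (2179 bp, heights 1.53 and 1.40), and Ppp1r9b, a scaffold of protein phosphatase 1 (2080 bp, 1.86 and 1.63), also lay downstream of their starts. Npr1, the receptor for atrial natriuretic peptide, a hormone that restrains aldosterone release, had a member of 2060 bp (chr3:90464501-90466560) that covered its start, with heights of 2.00 and 1.72. No region within 1 kb had a higher mean, but a touching region of 200 bp had 1.24 in replicate 1 and 1.92 in replicate 2, above the member in replicate 2. Its width was unbroken in replicate 2, while the longest unbroken stretch in replicate 1 was 640 bp.

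Mycn, a MYC family transcription factor, had a low member of 2000 bp (0.77 and 0.592), as did the neuronal basic helix-loop-helix gene Bhlhe22 (1976 bp, 0.956 and 0.675) and the homeobox gene Nkx2-4 (1967 bp, 0.467 and 0.465). All 3 covered a start. Mycn had 10 footprints in replicate 1 and 0 in replicate 2, so its footprints were not shared between libraries.

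Gfra1, a receptor for a glial growth factor, had 0.839 and 1.17 over 1940 bp, and Tmem178b had 1.01 and 1.23 over 1900 bp. Jade2, a scaffold of histone acetylation complexes, Ubtf, which drives ribosomal RNA transcription, and the kinase gene Hunk were each 1880 bp wide. Jade2 reached 3.02 in replicate 1 and 1.72 in replicate 2, the largest absolute difference between libraries of these 15, while Hunk had 1.42 and 1.31. Mex3b, an RNA-binding protein gene, closed the list with 1865 bp and heights of 0.871 and 0.472. As a ratio of heights, the difference at Mex3b was larger than at Jade2. Mex3b held 10 footprints in replicate 1 and 0 in replicate 2. Of the 15 widest members, 13 lay below the median height of narrower regions and 10 had a taller shared region within 1 kb.

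**Figure D2:**
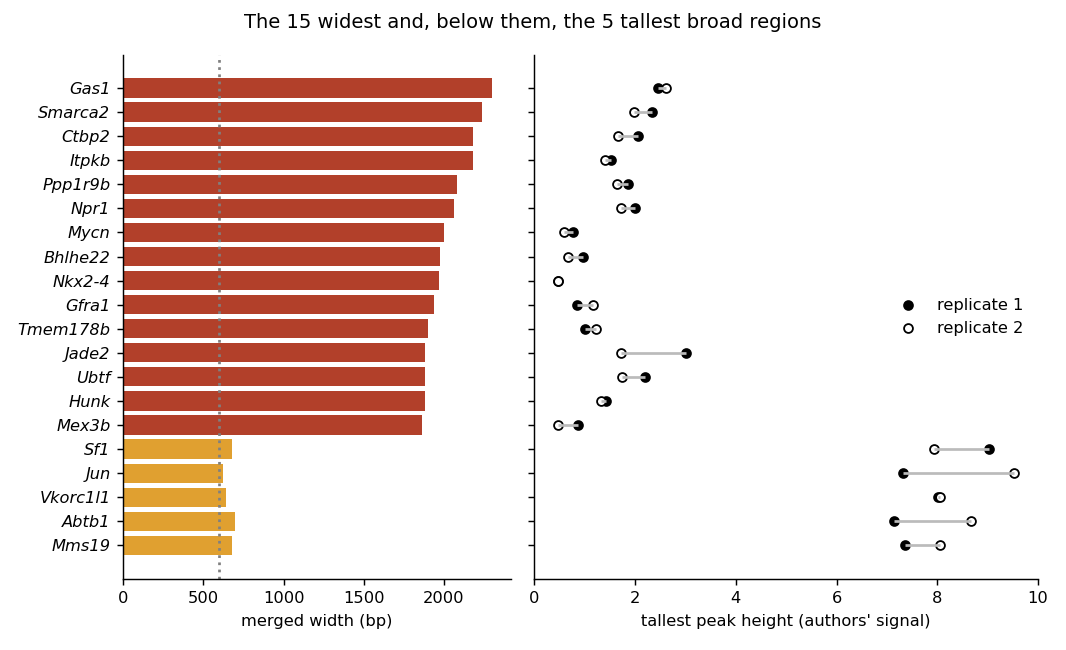
Merged width in bp (left, dotted line at 600 bp) and height of the tallest peak in the authors' signal (right) of the 15 widest members in red and, below them, the 5 tallest in orange, with replicate 1 as filled and replicate 2 as open circles. The widest members stay between 0.465 and 3.02, and the tallest lie between 7.13 and 9.52 at widths of 620 to 700 bp.

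The 5 tallest members were all narrower than the median member. Sf1, which encodes a splicing factor that recognises the branch point and is not the nuclear receptor of that nickname, had heights of 9.02 and 7.93 over 680 bp (chr19:6363361-6364040). Jun, a subunit of the AP-1 transcription factor, had 7.32 and 9.52 over 620 bp (chr4:95052081-95052700), and the 620 bp were covered in replicate 1 but 300 bp in replicate 2. Vkorc1l1, a relative of the vitamin K epoxide reductase, had 8.01 and 8.05 over 640 bp.

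Abtb1 (7.13 and 8.66) and Mms19, which serves iron-sulfur protein assembly (7.36 and 8.05), completed the 5 tallest. All 5 covered a start and none had a taller region within 1 kb. Abtb1 was also among the members with most footprints per kb, beside Baiap2l1, Skil, Sh2b3 and Unk. Abtb1 held 19 footprints in replicate 1 and 17 in replicate 2 over 700 bp. Skil, a corepressor of SMAD proteins, held 14 and 17 over 660 bp. All 5 members with most footprints per kb covered a start, and 4 of them had their centre upstream of it.

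Members reached into the gene. Their centre lay downstream of the nearest coding start in 73.1% (95% interval 71.3 to 75%), against 44.0% (43.3 to 44.7%) of narrower regions, with a median offset of +196.5 bp against -12 bp. A start was covered by 59.9% of members and 57.9% of narrower regions, a difference of 1.99 percentage points whose Newcombe 95% interval held 0 (-0.154 to 4.10). Members that covered a start extended a median of 464 bp downstream and 312 bp upstream of it, against 108 bp downstream and 154 bp upstream in narrower regions. Where a member covered no start, its centre was downstream in 85.6%, against 60.2% of such narrower regions. Intervals on shares of regions cover counting error only, and regions are not replicates.

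**Figure D3:**
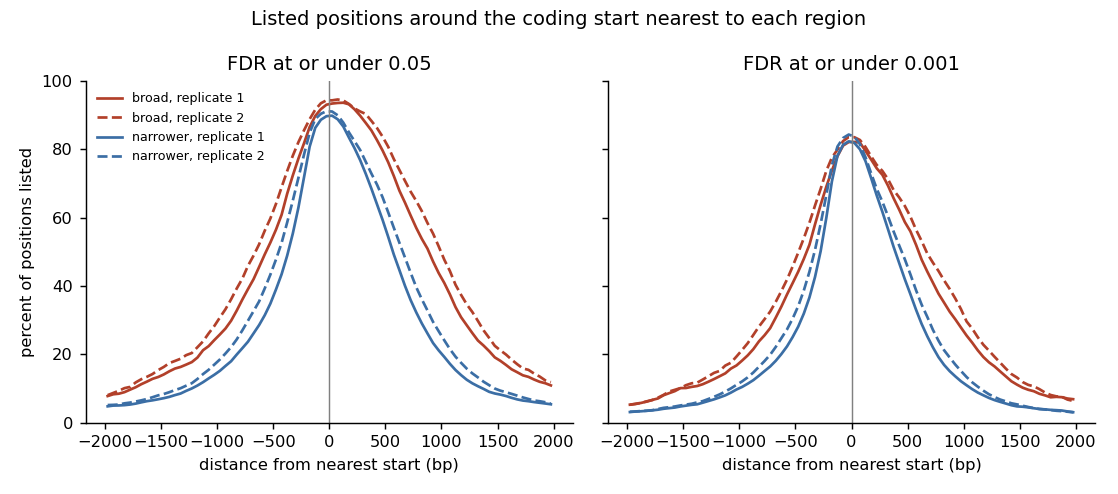
Percent of members (red) and narrower regions (blue) whose position at each distance from the nearest coding start (bp, in bins of 50 bp, downstream positive) was listed at a false discovery rate at or under 0.05 (left) and 0.001 (right), in replicate 1 (solid) and replicate 2 (dashed). The curves meet within a few percentage points at the start and part on both sides, with the wider gap downstream.

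The plot of listed positions uses false discovery rates in place of peak calls, but peak width set which regions are members. In the bin centred 775 bp downstream of the start, 57.0% of positions at members were listed at a false discovery rate of 0.05 in replicate 1 and 64.9% in replicate 2, against 32.3% and 39.7% at narrower regions. In the bin 775 bp upstream the shares were 36% and 42.2% at members, against 21.8% and 27.0% at narrower regions. At 25 bp downstream they were 93.4% and 94.3%, against 89.9% and 91.1%. At the stricter level of 0.001 the shares at 25 bp were within 1 percentage point of each other in each library (82.2% and 83.6% at members, 81.9% and 83.7% at narrower regions). These positions come from the same reads as the peaks that chose the members, so wider listing at members follows in part from the choice. Members lay at 2186 genes and narrower regions at 13461, of 14066 open genes, so some genes have regions of both kinds. The same start can then count in both curves.

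By annotation, the centre of a member lay in an exon in 45.9%, in an intron in 40.7% and outside genes in 13.5%. In narrower regions these shares were 32.9%, 29.3% and 37.8%. Starts of genes on both strands within 1 kb of the centre, as at divergent gene pairs, were present at 94 members (4.14%) and at 1752 narrower regions (8.58%), a difference of -4.44 percentage points (-5.28 to -3.46). With regions split by height into 4 groups of equal size, group 3 had 11% of 392 members and 9.81% of 5278 narrower regions. This small difference of the other sign carries no interval here. A start of a long non-coding RNA lay within 1 kb of the centre in 14.8% of members, against 10.3% of narrower regions. Coding starts 300 bp or more apart lay inside 8.6% of members, against 0.656% of narrower regions, which are seldom wide enough to hold them.

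A member often sat beside a taller region. A shared region with a higher mean height lay within 1 kb of 1248 members (55.0%), against 35.8% of narrower regions, a difference of 19.3 percentage points (17.1 to 21.4). The tallest such neighbour of a member had a median width of 300 bp and a median of 2.61 times the member's own height. Another region touched the member end to end in 7.50%, against 3.31% of narrower regions. Members with a taller neighbour had their centre at a median of 455 bp downstream and covered a start in 37.3%, while the other 1020 members had it at 85 bp and covered a start in 87.6%. Median heights were 1.25 and 1.20 in replicates 1 and 2 in members with a taller neighbour, against 1.57 and 1.46 in members without one. A taller neighbour is defined against the region's own height, so low regions have one more easily. These heights and the share of 55.0% are tied to that definition.

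Members were rich in G, C and CpG. In the 300 bp at the centre, members had a median GC content of 68.3% (67.7 to 68.7%), against 63.3% (63.3 to 63.7%) in narrower regions. The ratio of observed to expected CpG had a median of 0.807 (0.793 to 0.818), against 0.750 (0.746 to 0.754). A ratio above 0.6 together with a GC content above 50%, the usual mark of a CpG island, was present in 78.2% of members and in 67.0% of narrower regions. The difference of medians was 0.057, and in height groups 1 to 4, from lowest to highest, it was 0.220, 0.142, 0.086 and 0.013. Taken at the start rather than at the centre it was 0.029, and with regions built without replicate 1 or without replicate 2 it was 0.100 or 0.105.

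Broad regions away from promoters were less rich in CpG. Of 43097 shared regions farther than 1 kb from a coding start, 646 were 600 bp or wider (1.5%). These distal broad regions had a median CpG ratio of 0.466, a median GC content of 58.0% and heights of 0.876 in replicate 1 and 0.971 in replicate 2, below those of the members. Within the members the CpG ratio was higher where the region covered a start (0.839) than where it did not (0.750).

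Footprints were sparse in members. They held 6.4 footprints per kb in replicate 1 and 6.21 in replicate 2 (mean 6.30 ± 0.135, SD, n = 2 libraries), against 11.9 and 12.1 in narrower regions (12 ± 0.0875, SD, n = 2). Bases under a footprint of both libraries made up 2.04% of member sequence, against 10.4% in narrower regions. No such base was found in 39.9% of members, against 26.8% of narrower regions. Height moved with this result: in height group 1 the values were 4.88 and 4.12 footprints per kb in members, against 5.27 and 4.82 in narrower regions. In height group 4, with 74 members, they were 16.9 and 17.4 in members, against 20.2 and 20.4. Members were lower in each of the 4 height groups in both libraries, and the part of height in the difference was not tested. Footprints come from the same reads as peaks.

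The split was wide among the members too. Members with a taller neighbour held 4.11 and 3.67 footprints per kb in replicates 1 and 2, against 9.17 and 9.28 in members without one. This split uses the member's own height, and the part of height in it was not tested. Against narrower regions of 400 bp up to 600 bp alone, the difference was -2.20 footprints per kb, and against all narrower regions it was -5.71.

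Matches to the short motifs of promoter-binding factors were fewer in members for 12 of 15 motifs, with Newcombe intervals that left out 0. This number was smaller within height groups, which hold fewer regions, and against narrower regions of 400 bp up to 600 bp, as given below. The 300 bp at the centre were searched on both strands. This window holds only the middle of a member, with a median width of 740 bp, but all or most of a typical narrower region. In members its centre lay a median of 196.5 bp downstream of the start, and in narrower regions near the start. With the window at the nearest start instead, the difference changed sign for the NR5A1 motif alone, as given below. The part of this placement in the size of the differences was not tested. For NFY the letters searched were CCAAT. For SP/KLF factors they were GGGCGG. The letters of ETS factors were CCGGAAG. Those of NRF1 were CGCATGCG, a palindrome. The YY1 motif was taken as ATGGCGG. The cyclic AMP response element was read as TGACGTCA and the E-box as CACGTG. For AP-1 the motif was TGANTCA, where N is any base. The E2F motif was TTTNGCGC and that of EGR factors was GTGGGCG. THAP11/ZNF143 was read as ACTACAA, and the TATA box as TATAAA. The motif of the nuclear receptor NR5A1 was CAAGGTCA, and that of GATA factors was AGATAAG. A longer motif was searched for CTCF. The EGR letters overlap the SP/KLF letters in part, so 1 stretch can match both. A match is a description of the letters and shows no bound factor.

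A CCAAT match, the letters read by the trimeric activator NFY, stood in 409 of 2268 members (18.0%), against 31.7% of narrower regions and 30.4% of all shared promoter regions. The difference was -13.7 percentage points (-15.4 to -12). The letters of ETS factors, activators of many housekeeping genes, stood in 6.39% of members, against 13.1%. CRE letters, the target of CREB in cyclic AMP signalling, stood in 0.353% of members, against 2.65%, and CTCF letters, the target of the chromatin loop factor, in 0.265%, against 2.83%. NRF1, which drives nuclear genes for mitochondrial proteins, had 0.794% against 2.77%. In height group 1, the lowest, the order turned for ETS (4.54% in members, 3.91% in narrower regions) and NRF1 (0.567% and 0.483%). It held there for CCAAT (17.6% and 26.1%), CRE (0.426% and 0.846%) and CTCF (0.284% and 1.07%).

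In the central 300 bp the SP/KLF letters, a GC box, did not follow this order. They stood in 62.6% of members, against 60.8% of narrower regions and 61.0% of all shared promoter regions (difference 1.80, -0.323 to 3.88). The intervals of the E2F and NR5A1 differences also held 0. Over whole regions GGGCGG had 4.03 matches per kb in members and 4.65 in narrower regions. NR5A1 letters, the target of the steroidogenic factor of the cortex, stood in 0.97% of members and 1.3% of narrower regions. A TATA box stood in 2.29% of members, against 4.15%. In height group 4 the CCAAT shares were 40.5% in members and 42.2% in narrower regions, while in height group 3 they were 16.6% and 31.8%.

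**Figure D4:**
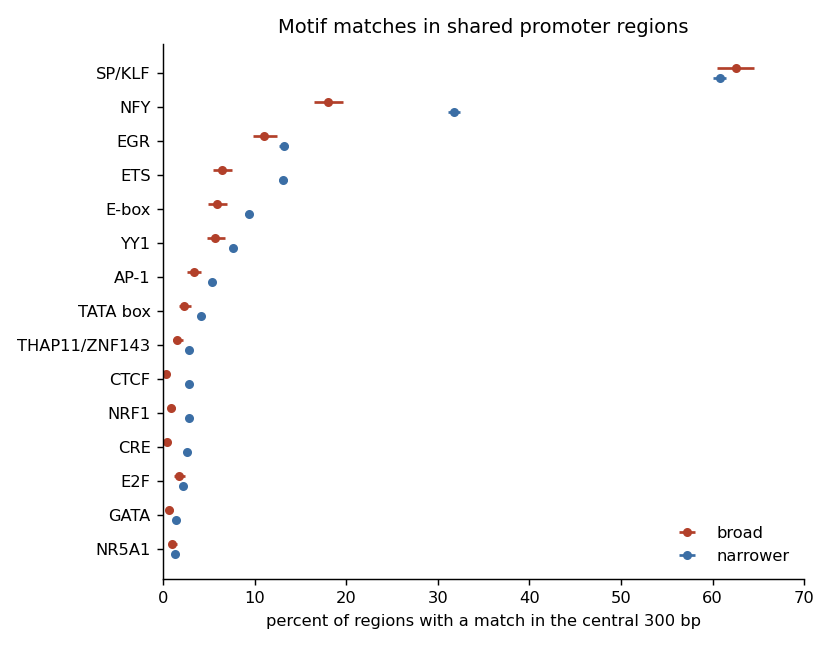
Percent of members (red) and narrower regions (blue) with a match to each of 15 motifs in the central 300 bp, with exact 95% intervals that cover counting error only. NFY shows the widest gap, 18.0% in members and 31.7% in narrower regions, and SP/KLF stands at 62.6% and 60.8%.

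Motif matches inside members also lay under footprints less often. Of 1451 CCAAT matches in whole members, 65 (4.48%) overlapped a footprint of both libraries, against 1886 of 9235 (20.4%) in narrower regions. For GGGCGG the shares were 11.1% of 7483 matches in members and 39.2% of 28217 in narrower regions. NRF1 letters were few in members but often under a footprint, 20 of 36 matches (55.6%, 38.1 to 72.1%), against 88.3% of 631 in narrower regions. CRE letters had 11 of 36 (30.6%, 16.3 to 48.1%), against 86.1% of 577, and CTCF letters 7 of 23 (30.4%, 13.2 to 52.9%), against 89.0% of 601. The lower density of footprints in members moves with each of these shares, and its part was not tested.

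Broad regions were frequent at immediate early genes, most of them transcription factor genes, which respond to a stimulus without new protein synthesis. Of 21 such genes, all open, 13 had a broad region (61.9%, exact interval 38.4 to 81.9%), against the 15.5% of all open genes. They were Egr3, Ier5, Klf2, Junb, Myc, Nr4a2, Klf4, Egr2, Jun, Nr4a3, Fos, Fosl2 and Jund. With the rule applied without replicate 1, 28.6% of these genes had a broad region, against 8.95% of all open genes, and without replicate 2, 33.3%, against 6.81%. Where the region had to cover a start the share was 25%, against 11.3% of all open genes, with 600 bp unbroken in each library 19.0%, against 3.92%, and at a minimum width of 800 bp 23.8%, against 6.61%. Of their 15 broad regions, 12 had a taller shared region within 1 kb and 5 covered a start.

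Junb, an AP-1 subunit, shows this layout. Its broad region of 920 bp (chr8:84977301-84978220), centred 957 bp downstream of the start in an exon, had heights of 1.75 in replicate 1 and 1.71 in replicate 2, with 0 footprints in both libraries. The 300 bp region at its start had 8.96 and 7.27, with 7 and 6 footprints. The broad region was lower than its narrower neighbour in both libraries by a wide margin.

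At Klf2, a Krüppel-like factor of vessel lining and other cells, the broad region of 993 bp had 1.35 and 1.14, against 7.86 and 6.78 in its 360 bp neighbour at the start. At Ier5, a stress-induced regulator, the broad region of 1020 bp had 1.58 and 1.75, against 8.02 and 6.97 in a 240 bp region. Egr3, a zinc finger factor, was lower throughout, with 0.706 and 0.727 over 1096 bp. All 4 lay downstream of the start and none covered it.

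Jun, Fos and Fosl2 had a different layout, and Fos and Fosl2 are given after their values were seen. Their broad regions covered the start with the centre upstream and had no taller neighbour. Fos had 4.48 and 3.49 over 600 bp, and Fosl2 had 5.44 in each library over 600 bp. Both stood exactly at the minimum width.

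Of chromatin regulators, 17 of 35 open genes had a broad region (48.6%, 31.4 to 66.0%), against the 15.5% of all open genes. Without replicate 1 the share was 28.6%, against 8.95%, and without replicate 2 it was 22.9%, against 6.81%. Where the region had to cover a start it was 20.7%, against 11.3%, and with 600 bp unbroken in each library 14.3%, against 3.92%. The widest were Smarca2, Kdm2b, Dnmt3a and Brd2. Kdm2b, a histone demethylase that binds CpG islands, had a member of 1040 bp with heights of 1.05 and 1.34. Dnmt3a, a DNA methyltransferase, had one of 1038 bp with 2.47 and 1.57, higher in replicate 1.

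Brd2, a reader of acetylated histones, had a member of 1008 bp with 1.18 and 1.41, against 9.77 and 7.30 in a 460 bp neighbour. Of the 21 broad regions of this list, 16 had a taller neighbour. Genes with more shared promoter regions had a broad one more often, 7.61% of genes with 1 region, 19.1% with 2, 27.8% with 3 and 39.4% with 4 or more. Immediate early genes had a median of 3 such regions and chromatin regulators of 2, and the part of this number in the shares was not tested.

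Among 21 open genes of adrenal steroidogenesis, 3 had a broad region (14.3%, 3.05 to 36.3%), near the share of all open genes. Cyp11b2, aldosterone synthase of the outer cortex, had a very low one upstream of its start (chr15:74857181-74858060, 880 bp), at 0.255 in replicate 1 and 0.142 in replicate 2, with 1 footprint in each library. Gata6, a factor of steroid-producing cells, had 2.13 and 2.02 over 620 bp. The region counted for Inha, the alpha subunit of inhibin, had 1.34 and 0.975 and lay nearest to the start of Obsl1, a shared promoter.

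Srebf2 was the single member of 19 open genes of cholesterol synthesis and uptake (5.26%, 0.133 to 26.0%), against the 15.5% of all open genes. Its broad region, whose sequence is given above, had 1.65 and 1.31 over 660 bp and 0 footprints in both libraries, against 6.62 and 6.52 in its 300 bp neighbour. Of 13 open genes of zonation and capsule signalling, 2 had a broad region (15.4%, 1.92 to 45.4%), near the share of all open genes. These were Ptch1, the hedgehog receptor (1200 bp, 2.55 and 1.91), and Lef1, a nuclear effector of WNT signalling (820 bp, 1.39 and 1.18).

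Of 16 open chromaffin cell genes, Syt1, a calcium sensor of vesicle release, alone had one (6.25%, 0.158 to 30.2%). Its heights were 0.658 in replicate 1 and 0.33 in replicate 2. Of 18 clock genes, 3 had one (16.7%, 3.58 to 41.4%). The intervals of both lists held the 15.5% of all open genes. Nfil3, a repressor of the clock output, had 3.65 and 3.88 over 1080 bp and was taller than its neighbours. Rora, an activating nuclear receptor, had 1.32 and 1.27 over 1000 bp, and Arntl, the core activator, had 1.96 and 1.90 over 600 bp. Rora and Nfil3 covered a start and Arntl did not.

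Of 14 housekeeping controls, Actb and Gapdh had one (14.3%, 1.78 to 42.8%), near the 15.5% of all open genes. The broad region at Actb, for cytoplasmic actin, lay upstream of the start over 1100 bp with 1.37 and 1.63, against 8.27 and 9.01 in a 380 bp neighbour. Gapdh, a glycolytic enzyme, had 1.40 and 1.44 over 620 bp, against 5.88 and 5.05 in a 280 bp neighbour. In translation factors 4 of 29 open genes had one (13.8%, 3.89 to 31.7%), and in splicing factors 2 of 28 (7.14%, 0.877 to 23.5%). Both intervals held the 15.5% of all open genes.

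The lists for other cell types held few open genes. Schwann cell genes had 3 of 5 (60%, 14.7 to 94.7%), namely Foxd3, Pmp22 and Erbb3. Endothelium had 2 of 12 (16.7%, 2.09 to 48.4%), Flt1 and Sox17, and adipocytes 2 of 8 (25%, 3.19 to 65.1%), Cebpa and Lpl. Macrophages had 1 of 6 (16.7%, 0.421 to 64.1%), Cd14. Hepatocytes had 1 of 3 (33.3%, 0.84 to 90.6%), Apoh, whose region also lies at Prkca. Lymphocyte, fibroblast and kidney genes had 0 of 3, 0 of 7 and 0 of 2. All these intervals held the 15.5% of all open genes. At Foxd3 peaks covered 820 bp in replicate 1 and 138 bp in replicate 2. Pmp22, a myelin protein that many cells also make, was the highest of the Schwann set at 2.81 and 2.49. Developmental homeobox genes had 6 of 31 (19.4%, 7.45 to 37.5%), with Msx1 and Irx3 among the widest. Their 7 regions were low, from 0.419 to 1.42 in replicate 1 and from 0.465 to 1.32 in replicate 2. Of all 19 lists, 9 stood above the share of all open genes. These were the immediate early, chromatin regulator, clock, homeobox, Schwann cell, endothelium, adipocyte, macrophage and hepatocyte lists, and the intervals of the immediate early and chromatin regulator lists alone lay wholly above it.

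**Figure D5:**
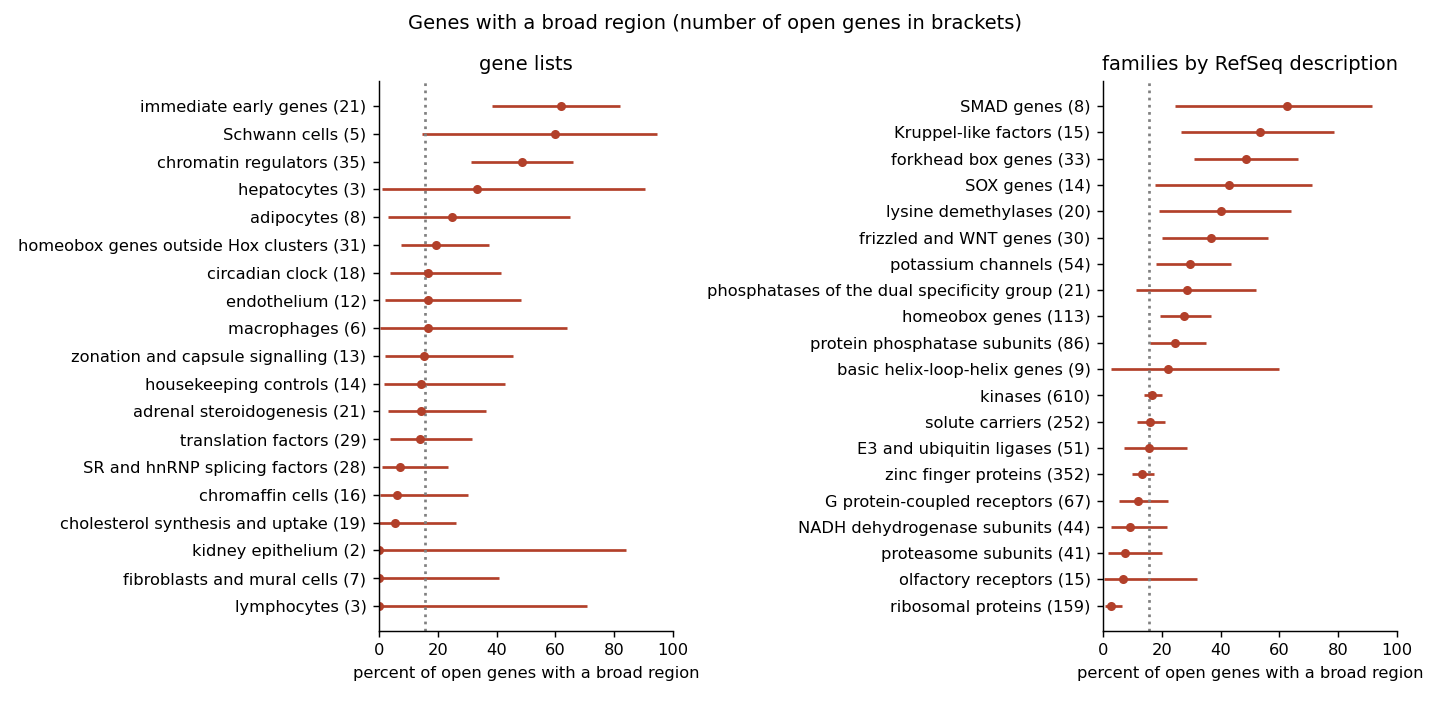
Percent of open genes with a broad region in each gene list (left) and in families taken from RefSeq descriptions (right), with exact 95% intervals that cover counting error only, the number of open genes in brackets and a dotted line at the 15.5% of all open genes. Immediate early genes stand at 61.9% and chromatin regulators at 48.6%, and ribosomal proteins are lowest among the families at 2.52%.

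On the chromosomes that held more than 7 shared promoter regions, members made up 8.44% (chromosome 1) to 12.6% (chromosome 13) of them. The Y chromosome had 0 members among 7. Soft-masked repeat bases made up 6.24% of member sequence and 5.73% of narrower sequence.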

How the data were processed

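DNase-seq of 2 adrenal gland libraries was used, each with its own peak lists, footprint list and false discovery rates, made by the authors from each library separately on mm10 (GRCm38), per the labels. The exact scaling of peak height is not stated. Neither the aligner nor any caller is given in the sources used here. Height was taken as the normalised signal in the lists the authors deposited. False discovery rates are q-values deposited by the authors and listed only under 0.05. The score in the deposited footprint lists is constant and was not used.

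Overlapping peaks (at least 1 bp) of the longer lists of both libraries were merged on chromosomes 1 to 19, X and Y, and compared with 54236 starts of protein-coding transcripts of 21802 genes (GENCODE vM21), after 27 symbols that name more than 1 gene were left out. Sequence features came from 300 bp at the region centre, and footprints were counted by midpoint. Coordinates are 1-based. How the alleles of the hybrid mice differ from the reference was not examined.

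With 1 group of 2 libraries, no test between groups was made. Shares carry exact Clopper-Pearson 95% intervals, differences of shares Newcombe intervals and medians order-statistic intervals, all of which cover counting error over regions only. Depth is unknown, so no precision from read counts is given. Heights were split into 4 groups of equal size over all shared promoter regions. A gene was open where a shared promoter region lay within 1 kb of a start.

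The members, the 19 gene lists and the motifs were chosen with earlier results of these data known. Members are named as the 15 widest, the 5 tallest, the 5 with most footprints per kb (with at least 1 in each library), up to the 4 widest broad members of each list, and the 2 highest at 600 and at 599 bp. Others are said to be chosen after their values were seen. The rule for sequences was the 15 widest and the widest of the steroidogenesis, cholesterol, clock and immediate early lists, before a start and outside exons. A part of these is printed. Jun and Vkorc1l1, from the 5 tallest, and the narrower Srebf2 stretch lie outside this rule and were chosen after their values were seen.

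Alternatives changed the peak list, the merging, the minimum width, the start rule, the libraries, the sequence window and the regions compared. The steps were tested on simulated data. Python 3.11.15 was used with numpy 2.4.6, pandas 2.3.3, scipy 1.17.1, pysam 0.24.0 and matplotlib 3.10.9.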

Additional observations from a re-analysis of the deposited data

How the results depend on the processing

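No paired analysis was possible because there was 1 group of libraries. The number of broad promoter regions, 2268 as reported, was 1481 with the shorter peak list, 3665 at a minimum width of 500 bp, 925 at 800 bp, 535 where each library alone had to hold 600 bp unbroken, and 1359 where the region had to cover a start. The share of shared promoter regions that were broad was 7.91%, 16.2%, 4.08% and 2.36% under the shorter list, both other widths and the unbroken rule, 11.2% with touching peaks merged and 9.54% with peaks above the median height of their library. Applied to 1 library at a time, the rule gave 993 to 1339 regions and 3.56 to 4.57%.

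The log2 ratio of median heights kept its sign throughout. It was -0.92 with the shorter list, -0.90 at 500 bp, -0.74 at 800 bp, -0.52 unbroken in each library, -1.35 where the region covered the start, -1.0 with gene 5′ ends as starts and -1.07 with peaks above the median height, and -0.26 to -0.16 with 1 library at a time. The median centre offset of members was 155 bp with the shorter list, 157 bp at 500 bp, 258 bp at 800 bp, 69 bp where the start was covered, 422 bp with gene 5′ ends, 174 bp above the median height, and 201 to 221 bp with 1 library at a time.

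The both-strand difference was -2.94 percentage points at 500 bp, -5.33 at 800 bp, -5.46 unbroken, -5.65 over the start and -5.31 with gene 5′ ends. In height groups 1 to 4, from lowest to highest, it was -2.33, -2.88, 1.16 and -3.06. Its sign was the other way in group 3, which held 392 members, and the cause was not tested. With 1 library at a time it was -4.24 to -3.80. The CpG difference stayed above 0. It was 0.0815 at 800 bp, 0.0850 unbroken, 0.0239 over the start, 0.0374 with gene 5′ ends, 0.0347 above the median height, 0.0734 in 500 bp windows, 0.0293 at the start, 0.0274 against regions of 400 to 600 bp and 0.220, 0.142, 0.0856 and 0.0135 in the height groups. With 1 library at a time it was 0.0999 to 0.105.

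The difference in footprints per kb stayed below 0. It was -6.21 with the shorter list, -5.96 at 500 bp, -5.30 at 800 bp, -4.15 unbroken, -7.17 over the start, -6.02 with gene 5′ ends, -6.66 above the median height, -2.20 against regions of 400 to 600 bp, -4.78 in the central 300 bp and -0.542, -2.19, -4.59 and -3.11 in the height groups. With 1 library at a time it was -4.78 to -4.59, and as a percent of bases it was -10.2. The number of motifs fewer in members, 12 as reported, was 7 against regions of 400 to 600 bp and 4, 7, 5 and 1 in the height groups, which hold fewer regions. It was 12 without either library.

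Single motif differences that changed sign were EGR (0.846 without replicate 1, 1.24 in 500 bp windows, 2.66 in height group 1 and 1.28 in group 2), ETS (0.632), NRF1 (0.0841), YY1 (1.94) and THAP11/ZNF143 (0.0903) in group 1, YY1 also in group 2 (0.264) and group 3 (1.51), and AP-1 (2.65), TATA box (3.15) and GATA (0.529) in group 4, all in percentage points. Of the 3 motifs whose interval held 0 as reported, SP/KLF turned to -3.62 over the start, -0.824 above the median height and -0.0674 against regions of 400 to 600 bp. E2F turned to 0.891 unbroken, 0.133 without replicate 2, 0.0301 against regions of 400 to 600 bp and 0.292 and 0.343 in groups 1 and 3. NR5A1 turned to 0.204 over the start, 0.0196 with the window at the start and 0.708 in group 4. NFY, CRE, E-box and CTCF kept their sign in all 17 settings. The number of gene lists above the share of all open genes, 9 as reported, was 6 to 11 in other settings and 8 to 9 with 1 library at a time. Causes of these moves were not tested. Unknown depth limits what low regions can show, and 2 libraries cannot give a spread between animals.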

Other observations

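Families of genes taken from RefSeq descriptions were chosen after the values were seen. Of the 13668 open genes with a description, 15.7% had a broad region. Forkhead box genes had one in 16 of 33 (48.5%, exact 95% interval 30.8 to 66.5%) and Krüppel-like factors in 8 of 15 (53.3%, 26.6 to 78.7%). SOX genes had one in 6 of 14 (42.9%, 17.7 to 71.1%), and lysine demethylases in 8 of 20 (40%, 19.1 to 63.9%). SMAD genes, which carry TGF-beta and BMP signals, had one in 5 of 8 (62.5%, 24.5 to 91.5%), and frizzled and WNT genes in 11 of 30 (36.7%). At Smad6, an inhibitor of BMP signalling, the broad region of 1307 bp (chr9:64020194-64021500) had heights of 1.27 in replicate 1 and 1.36 in replicate 2, against 3.58 and 3.62 in a narrower neighbour of 280 bp. At Smad3, a carrier of TGF-beta signals, it had 0.924 and 1.18 over 720 bp, against 5.50 and 5.37 in a neighbour of 500 bp.

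Foxo3, a stress-responsive forkhead factor, had a broad region of 1275 bp with 1.39 and 1.21, against 6.29 and 4.28 in a neighbour of 320 bp, and Sox4 had 1.41 and 1.99 over 1740 bp, against 3.56 and 4.55. Klf9, which responds to glucocorticoids, had 4.93 and 4.69 over 620 bp and no taller neighbour. Ribosomal protein genes, mitochondrial ones included, had a broad region in 4 of 159 (2.52%, 0.69 to 6.32%). Proteasome subunits had one in 3 of 41 (7.32%, 1.54 to 19.9%) and NADH dehydrogenase subunits in 4 of 44 (9.09%, 2.53 to 21.7%). Potassium channels had one in 16 of 54 (29.6%), homeobox genes in 31 of 113 (27.4%) and zinc finger proteins in 47 of 352 (13.4%). Kinases (102 of 610, 16.7%), solute carriers (40 of 252, 15.9%) and ubiquitin ligases (8 of 51, 15.7%) stood near the share of all open genes with a description.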
